A study of Mus musculus with 32 samples.

Results

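T cell receptor segment genes encode the variable and constant stretches from which T cells build their antigen receptors. They were taken here as the rows of the count table whose symbol begins with Tra, Trb, Trg or Trd followed by v for variable or c for constant, and that held 10 or more counts summed over all 32 libraries. This rule gave 133 of the 39676 genes. Another 41 rows carried such a symbol with fewer counts, of which 21 had no count. The 133 genes comprised 94 alpha variable genes, 9 variable genes annotated for use in alpha or delta chains, 21 beta variable genes, 4 delta variable genes, 1 gamma variable gene (Trgv2) and the 4 constant genes Trac, Trbc1, Trbc2 and Trdc. The gamma constant genes and the other gamma variable genes are listed in the table under symbols that begin with Tcrg-, and they are given beside the members as non-members.

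The libraries were made from polyA RNA of whole tumors, with 8 female mice of 8 to 10 weeks in each of 4 groups. BALB/c mice received 500000 cells of the murine mesothelioma line AB1 and C57BL/6 mice received 1000000 cells of the murine mesothelioma line AE17, either into the pleural cavity (IPL) or under the skin of the flank (SC), and the untreated tumors were collected on day 10. Cell line, mouse strain and number of cells changed together between AB1 and AE17 and cannot be told apart, and at each site the AB1 and AE17 libraries shared no sequencing lane. Lane 3 held the 8 AB1 IPL mice and 2 AB1 SC mice, lane 2 held 6 AB1 SC and 5 AE17 IPL mice, and lane 1 held 3 AE17 IPL mice and the 8 AE17 SC mice, so that lane and site overlapped within each model. Total counts ranged from 15432258 to 20649645 per library, at which 3 counts, taken as the smallest detectable number, equal 0.139 to 0.19 CPM (read counts scaled to a common library size with edgeR's TMM factors). Counting limits and intervals cover counting error only. The 5 skeletal muscle markers summed to 95.4 to 3518 CPM in AB1 IPL tumors and to 50.7 to 326 CPM in AB1 SC tumors, and all 5 were called higher in AB1 IPL tumors. Of the 5 mesothelial and mesothelioma markers with a row, Pdpn had at least 1280 counts in every library, while Wt1, Krt19, Lrrn4 and Upk3b had group medians of 0 to 78 counts and were each at 0 in at least 1 library. The T cell marker Cd3e had at least 24 counts in every library.

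A T cell assembles each receptor chain in the thymus by joining a variable segment to joining segments, and in beta and delta chains also to diversity segments, ahead of a constant gene. Most T cells carry an alpha chain paired with a beta chain and recognize peptides on MHC molecules, while gamma-delta T cells carry a gamma and a delta chain and are known from skin, mucosa and other barrier tissues. The choice of variable segment shapes what the receptor can bind, so the segment counts of a tissue describe which receptors its T cells carry, and a clone that has expanded raises the share of its own segments. NK cells, which assemble no receptor, are also known to transcribe Trdc. In whole tumors, fewer T cells and less receptor RNA per T cell cannot be told apart.

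The sequences below are from the GENCODE M21 transcripts on GRCm38, a genome of C57BL/6 origin, and show how far the members can be told apart by 50-base reads. The coding sequences of Trbc1 and Trbc2 differed at 23 of 518 bases, an identity of 95.6%. The stretch of coding bases 378 to 497 holds 18 of these differences, shown in capitals. It lies on the plus strand between chr6:41539116-41539332 in Trbc1 and chr6:41547612-41547875 in Trbc2, with an intron removed in each.
Trbc1: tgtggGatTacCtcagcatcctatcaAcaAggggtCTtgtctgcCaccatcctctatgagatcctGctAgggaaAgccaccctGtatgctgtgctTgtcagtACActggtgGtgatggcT
Trbc2: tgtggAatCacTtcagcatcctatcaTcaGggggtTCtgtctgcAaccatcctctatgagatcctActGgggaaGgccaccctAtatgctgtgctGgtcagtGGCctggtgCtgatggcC
The last 60 bases of variable genes are shown next for segments on which the results turn, with capitals from the cysteine codon that opens the third complementarity-determining region. The first group holds beta segments known for deletion of their T cells by endogenous superantigens in mice such as BALB/c that carry the MHC molecule I-E, which C57BL/6 mice lack. These lie on the plus strand at chr6:41227934-41227993, chr6:41114008-41114067, chr6:41119305-41119364, chr6:41141599-41141658 and chr6:41152171-41152230.
Trbv26: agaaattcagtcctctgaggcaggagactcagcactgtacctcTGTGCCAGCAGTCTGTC
Trbv12-1: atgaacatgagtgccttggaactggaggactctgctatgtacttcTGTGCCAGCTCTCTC
Trbv12-2: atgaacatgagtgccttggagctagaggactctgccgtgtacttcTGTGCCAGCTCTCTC
Trbv15: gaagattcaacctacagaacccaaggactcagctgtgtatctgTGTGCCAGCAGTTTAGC
Trbv16: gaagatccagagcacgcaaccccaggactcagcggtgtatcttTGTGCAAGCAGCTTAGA
The second group holds beta segments that led the usage of single mice or differed between models, at chr6:40891826-40891885, chr6:41121773-41121832, chr6:41178989-41179048 and chr6:41135557-41135616 on the plus strand.
Trbv1: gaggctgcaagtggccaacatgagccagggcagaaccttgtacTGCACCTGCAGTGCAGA
Trbv13-2: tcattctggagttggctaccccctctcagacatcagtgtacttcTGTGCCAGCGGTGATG
Trbv19: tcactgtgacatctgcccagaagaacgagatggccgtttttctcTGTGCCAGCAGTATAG
Trbv14: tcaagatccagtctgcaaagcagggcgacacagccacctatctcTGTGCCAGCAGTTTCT
The third group holds 3 copies of an alpha segment, at chr14:53641166-53641225, chr14:52949110-52949169 and chr14:53260120-53260179 on the plus strand, and Trgv2, at chr13:19336573-19336632 on the minus strand.
Trav14-2: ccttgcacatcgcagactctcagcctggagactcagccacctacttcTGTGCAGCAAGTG
Trav14d-2: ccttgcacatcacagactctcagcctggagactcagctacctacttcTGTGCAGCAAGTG
Trav14n-2: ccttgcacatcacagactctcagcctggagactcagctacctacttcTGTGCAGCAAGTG
Trgv2: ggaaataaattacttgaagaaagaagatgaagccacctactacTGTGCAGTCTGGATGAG
Trav14d-2 and Trav14n-2 differed at 0 of 364 coding bases, and Trav14-2 differed from each of them at 8. Among the 94 alpha variable genes, a median of 66.15% of all 50-base stretches also occurred in another gene, and 57 genes shared over 50% of theirs. Among the 21 beta variable genes the median was 0% and 16 genes shared none. Trbc1 shared 40.5% and Trbc2 44% of their stretches. In 15 sets covering 30 members, the copies had the same count in all 32 libraries, so the same reads were counted for each copy and sums over alpha segments count some reads more than once. Differences between the BALB/c genes and the reference, which could lower AB1 counts, were not tested.

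All 4 constant genes were lower in AB1 IPL than in AB1 SC tumors, and none of them changed past the threshold between the AE17 sites. Trac encodes the constant part of the alpha chain. Its level ranged from 2.87 to 10.7 CPM (median 7.09) in AB1 IPL tumors, from 12.5 to 25.7 CPM (median 16.6) in AB1 SC tumors, from 12 to 28.6 CPM (median 22.6) in AE17 IPL tumors and from 3.82 to 35.6 CPM (median 12.1) in AE17 SC tumors. Every AB1 IPL mouse lay below every AB1 SC and every AE17 IPL mouse, while the AE17 SC mice spread from 3.82 CPM to above the highest mouse of any other group. The log2 fold change of IPL against SC was -1.28 (SE 0.23) in AB1, with an adjusted p of 0.000803 by edgeR's quasi-likelihood test, and 0.53 (SE 0.37) in AE17, with an adjusted p of 0.391 by the same test.

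Trbc1 and Trbc2 encode the 2 alternative constant parts of the beta chain. Trbc1 ranged from 6.47 to 20.8 CPM (median 13.1) in AB1 IPL tumors, from 28.8 to 65.1 CPM (median 40.9) in AB1 SC tumors, from 13.5 to 34.6 CPM (median 23) in AE17 IPL tumors and from 3.27 to 42.2 CPM (median 15.5) in AE17 SC tumors. Trbc2 ranged from 4.8 to 22 CPM (median 12.5), from 22.1 to 49.3 CPM (median 32.9), from 13.3 to 38.7 CPM (median 28.9) and from 3.45 to 42.1 CPM (median 14.1) in the same order of groups. The AB1 sites did not overlap for either gene, and in AE17 the IPL range lay inside the SC range for both. In AB1 the log2 fold change of IPL against SC was -1.70 (SE 0.22, edgeR adjusted p = 5.84e-05) for Trbc1 and -1.41 (SE 0.24, edgeR adjusted p = 0.000576) for Trbc2, and in AE17 it was 0.30 (edgeR adjusted p = 0.656) and 0.66 (edgeR adjusted p = 0.292).

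Trdc encodes the constant part of the delta chain. It ranged from 1.1 to 3.21 CPM (median 1.69) in AB1 IPL tumors, from 4.47 to 11.7 CPM (median 7.64) in AB1 SC tumors, from 0.803 to 1.96 CPM (median 1.28) in AE17 IPL tumors and from 1.03 to 4.65 CPM (median 2.94) in AE17 SC tumors. The AB1 sites did not overlap, and the AE17 sites overlapped at the low end of the SC range. The log2 fold change of IPL against SC was -2.09 (SE 0.24, edgeR adjusted p = 2.09e-05) in AB1 and -0.93 (SE 0.27, edgeR adjusted p = 0.0527) in AE17. Without AE17 IPL replicate 5, AE17 SC replicate 4 or AE17 SC replicate 8, the AE17 difference passed the threshold, with edgeR adjusted p values for Trdc of 0.0457, 0.034 and 0.0248. The NK cell marker Ncr1 moved in the same direction, with 100 to 218 counts in AB1 IPL, 280 to 732 in AB1 SC, 36 to 103 in AE17 IPL and 42 to 209 in AE17 SC tumors, and its part in the Trdc result was not tested.

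**Figure D1:**
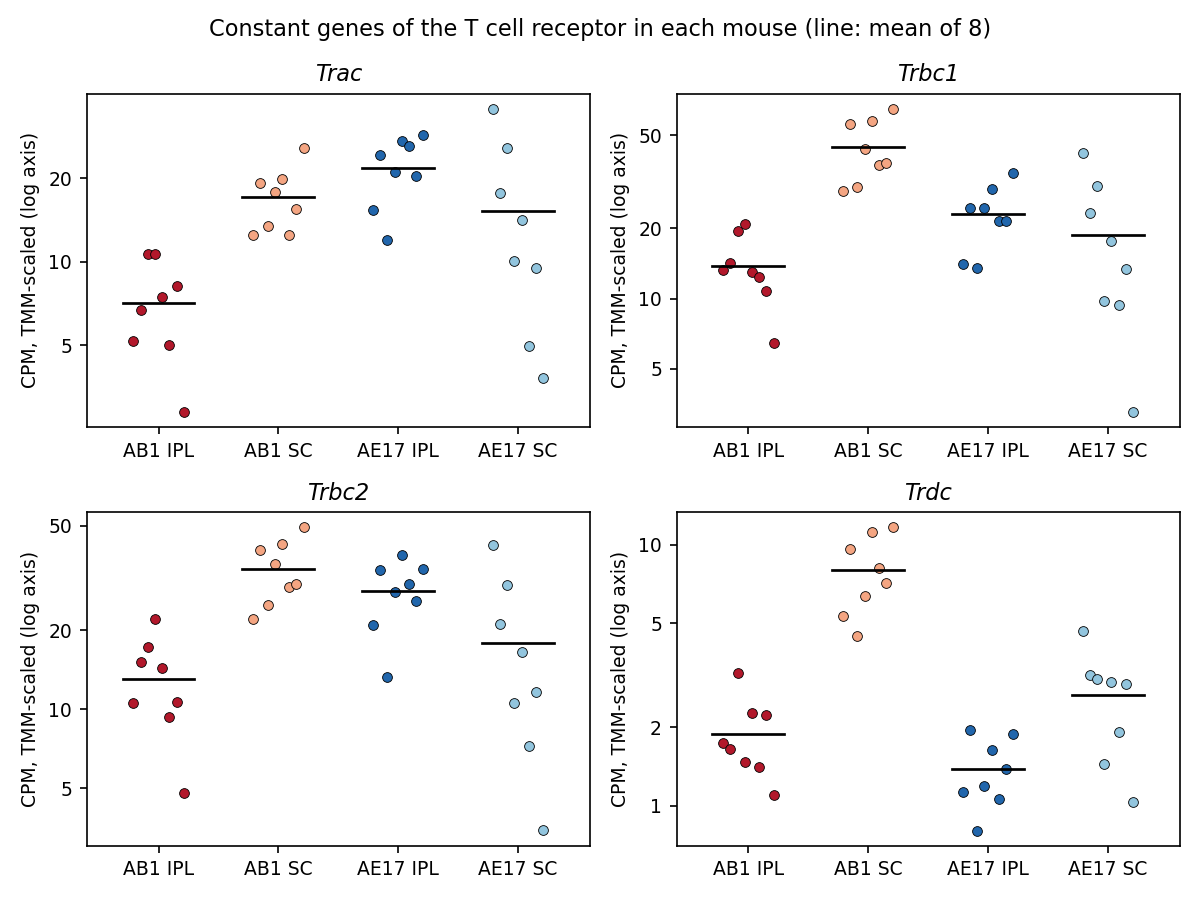
TMM-scaled CPM of Trac, Trbc1, Trbc2 and Trdc (log axis) in each of the 32 mice by group, with a line at the mean of 8 mice. The AB1 IPL points lie below the AB1 SC points for all 4 genes, with Trac at 2.87 to 10.7 against 12.5 to 25.7 CPM, and the AE17 SC points spread most widely.

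Between models, Trbc1 and Trbc2 differed in opposite directions at the 2 sites. In IPL tumors Trac, Trbc2 and Trbc1 were lower in AB1 than in AE17, with log2 fold changes of -1.60 (edgeR adjusted p = 2.5e-05), -1.09 (edgeR adjusted p = 0.00169) and -0.72 (edgeR adjusted p = 0.0124). In SC tumors Trdc, Trbc1 and Trbc2 were higher in AB1, with log2 fold changes of 1.58 (edgeR adjusted p = 6.51e-05), 1.24 (edgeR adjusted p = 0.00759) and 0.93 (edgeR adjusted p = 0.0375). Trac in SC tumors had a log2 fold change of 0.16 (edgeR adjusted p = 0.725), and Trdc in IPL tumors 0.46 (edgeR adjusted p = 0.0931). The Trbc2 call in SC tumors was lost when any 1 of 8 mice was left out, namely AB1 SC replicates 2, 4, 5 and 8 and AE17 SC replicates 4, 5, 6 and 7, with edgeR adjusted p values up to 0.0687. Without AB1 IPL replicate 8, Trdc passed the threshold in IPL tumors (edgeR adjusted p = 0.0454). The interaction of model and site, the AB1 site difference minus the AE17 site difference in 1 fit of all 32 mice, was -2.05 for Trbc2, -1.99 for Trbc1, -1.79 for Trac and -1.14 for Trdc on the log2 scale, with edgeR adjusted p values of 0.00284, 0.00265, 0.0059 and 0.0253.

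Within lane 3 alone, with 8 IPL and 2 SC mice of AB1, the log2 fold changes were -2.04 for Trdc (edgeR adjusted p = 0.0209), -1.69 for Trbc1 (edgeR adjusted p = 0.041), -1.33 for Trbc2 (edgeR adjusted p = 0.188) and -1.23 for Trac (edgeR adjusted p = 0.198). Within lane 1 alone, with 3 IPL and 8 SC mice of AE17, they were -0.88 for Trdc, 0.47 for Trbc1, 0.75 for Trbc2 and 0.71 for Trac, with edgeR adjusted p values of 0.346 or more. No lane held both models at the same site. With lane as a covariate, AB1 IPL against SC stayed past the threshold for Trdc (-1.99, edgeR adjusted p = 0.00484) and Trbc1 (-1.63, edgeR adjusted p = 0.0127). Trbc2 (-1.28, edgeR adjusted p = 0.0732) and Trac (-1.18, edgeR adjusted p = 0.0842) lost their calls. The interaction fitted with this covariate lost its call for all 4 genes, with edgeR adjusted p values between 0.091 and 0.296.

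The balance of delta to alpha constant counts differed in every comparison. The share of Trdc among Trdc and Trac counts was 21.8% ± 4.56 (SD, n = 8) in AB1 IPL, 31.6% ± 4.83 (SD, n = 8) in AB1 SC, 6.01% ± 1.07 (SD, n = 8) in AE17 IPL and 17.5% ± 6.23 (SD, n = 8) in AE17 SC tumors. Genes of different length are pooled in this share, so it compares groups and not the abundance of the chains. The AE17 IPL mice, at 3.9% to 7.48%, lay below all other mice, whose lowest value was 10.6%. The AB1 sites overlapped, at 12.2% to 27.6% in IPL and 24.9% to 39.6% in SC tumors. The share was lower in IPL than in SC tumors by 9.78 percentage points in AB1 (exact two-sided permutation p = 0.000777, 0.00149 after Benjamini-Hochberg adjustment over 8 share comparisons). In AE17 the difference of IPL minus SC was -11.5 points, with an exact two-sided permutation p of 0.000155 (0.000622 adjusted), the smallest that the 12870 splits can give. AB1 minus AE17 was 15.8 points in IPL tumors (exact permutation p = 0.000155, 0.000622 adjusted) and 14.1 points in SC tumors (exact permutation p = 0.000622, 0.00149 adjusted). Within 1 lane the site difference was -9.74 points in AB1 (unadjusted exact permutation p = 0.0222), the smallest p that 8 against 2 mice can give. In AE17 it was -12 points with 3 against 8 mice (unadjusted exact permutation p = 0.0121).

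The share of Trbc1 among Trbc1 and Trbc2 counts was 52.2% ± 4.01 (SD, n = 8) in AB1 IPL, 56.3% ± 1.13 (SD, n = 8) in AB1 SC, 45% ± 3.9 (SD, n = 8) in AE17 IPL and 51.4% ± 2.73 (SD, n = 8) in AE17 SC tumors. The ranges of neighboring groups overlapped, and AE17 IPL, with the lowest mean and mice at 40.3% to 50.5%, overlapped AB1 IPL and AE17 SC mice. IPL minus SC was -4.08 points in AB1 (exact two-sided permutation p = 0.0193, also after adjustment) and -6.36 points in AE17 (exact permutation p = 0.00326, 0.00435 adjusted). AB1 minus AE17 was 7.22 points in IPL tumors (exact permutation p = 0.0042, 0.0048 adjusted) and 4.94 points in SC tumors (exact permutation p = 0.000932, 0.00149 adjusted). Within 1 lane the AB1 site difference was -5.08 points with 8 against 2 mice (exact permutation p = 0.156), and the AE17 difference was -5.55 points (exact permutation p = 0.0303). Reads from the stretches that both genes share cannot be assigned to either copy, and where they were counted for both they bring the share closer to equal parts.

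**Figure D2:**
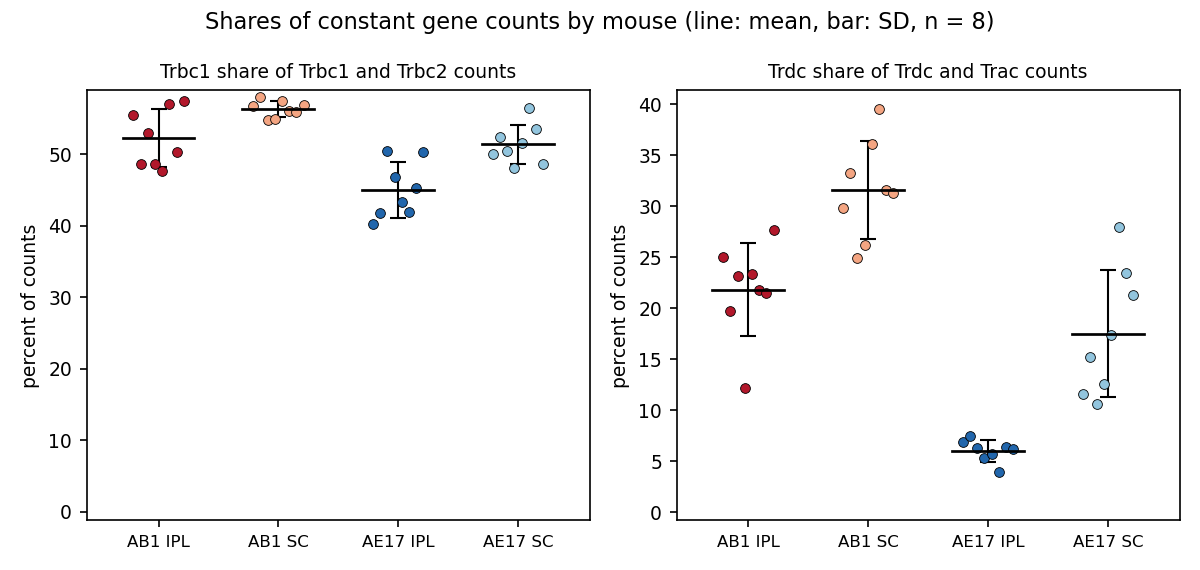
Percent of Trbc1 among Trbc1 and Trbc2 counts (left) and of Trdc among Trdc and Trac counts (right) in each mouse, with the mean and SD of 8 mice per group. AE17 IPL has the lowest group mean in both panels. Its mice lie at 40.3% to 50.5% on the left, overlapping AB1 IPL and AE17 SC mice, and at 3.9% to 7.48% on the right, below all other mice.

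The 4 delta variable genes were sparse, with 27 counts in all AB1 IPL, 100 in all AB1 SC, 25 in all AE17 IPL and 54 in all AE17 SC libraries, and none passed the filter on low counts. Trdv4, the delta segment of the receptor of skin-resident gamma-delta T cells in mice, had 0 to 3 counts per AB1 IPL mouse, 3 to 7 per AB1 SC mouse, 0 to 4 per AE17 IPL mouse and 0 to 10 per AE17 SC mouse. All 8 AB1 SC mice and 7 mice of each other group had a Trdv4 count. Trdv2-2 had 7 counts in 5 AB1 IPL mice, 40 counts in 8 AB1 SC mice, 3 counts in 3 AE17 IPL mice and 10 counts in 6 AE17 SC mice. In a fit without the filter, Trdv2-2 and Trdv4 were lower in AB1 IPL than in AB1 SC tumors, with log2 fold changes of -2.47 (edgeR adjusted p = 0.00496) and -1.42 (edgeR adjusted p = 0.0237), and Trdv2-2 was higher in AB1 than in AE17 SC tumors, by 1.83 (edgeR adjusted p = 0.00569). Trdv2-1 had 16 and Trdv5 25 counts in all, and neither passed in any comparison. Trdv2-1 and Trdv2-2 shared 52.9% and 52.6% of their 50-base stretches with other genes. Trdv5, at chr14:54148662-54149294 on the minus strand, overlaps Trdc, at chr14:54142851-54148868 on the plus strand, and reads of the overlap cannot be told apart without strand.

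Trgv2 was the gamma member, and it was highest in AE17 IPL tumors. It had 1 to 10 counts per mouse in AB1 IPL tumors (median 0.282 CPM), 1 to 12 in AB1 SC tumors (median 0.264 CPM), 13 to 57 in AE17 IPL tumors (median 1.33 CPM) and 0 to 24 in AE17 SC tumors (median 0.21 CPM). The AE17 IPL mice lay above all AB1 mice, and 1 AE17 SC mouse, replicate 1 with 24 counts, lay within their range. The log2 fold change of IPL against SC in AE17 was 2.03 (SE 0.53, edgeR adjusted p = 0.0363), and that of AB1 against AE17 in IPL tumors was -2.38 (SE 0.42, edgeR adjusted p = 0.000105). The AE17 site call of Trgv2 was lost without any 1 of AE17 IPL replicates 2, 3, 4, 6, 7 and 8 or AE17 SC replicates 2, 5, 6 and 7, with edgeR adjusted p values up to 0.0739 and log2 fold changes of 1.76 or more. Trgv2 passed the filter on low counts only in fits that include AE17 IPL, the group in which it is high, and without the filter its AE17 site difference did not pass, at 2.03 (edgeR adjusted p = 0.0711). Within lane 1 it was 2.32 (edgeR adjusted p = 0.25).

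The non-member gamma constant genes are given beside it. Tcrg-C2 had 50 to 214 counts per AE17 IPL mouse, 4 to 113 per AE17 SC mouse, 17 to 46 per AB1 SC mouse and 6 to 43 per AB1 IPL mouse. AE17 IPL replicate 6 held the most Trgv2 counts, 57, and the most Tcrg-C2 counts, 214. Tcrg-C2 had a log2 fold change of AE17 IPL against SC of 1.78 (edgeR adjusted p = 0.0551) and of AB1 against AE17 in IPL tumors of -2.41 (edgeR adjusted p = 3.91e-05). Tcrg-C1 was also lower in AB1 than in AE17 IPL tumors, by -1.52 (edgeR adjusted p = 0.00325) on the log2 scale. Tcrg-C3 passed the filter on low counts only in comparisons that held AE17 IPL tumors, where it had 9 to 35 counts per mouse, against 2 to 19 in AE17 SC and 0 to 14 in AB1 IPL tumors. Tcrg-C4 and Tcrg-C1 were lower in AB1 IPL than in AB1 SC tumors, by -1.51 (edgeR adjusted p = 0.0016) and -0.99 (edgeR adjusted p = 0.0319). In AE17 the 4 gamma constant genes together had 86 to 309 counts per mouse in IPL and 11 to 212 in SC tumors, which overlapped.

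**Figure D3:**
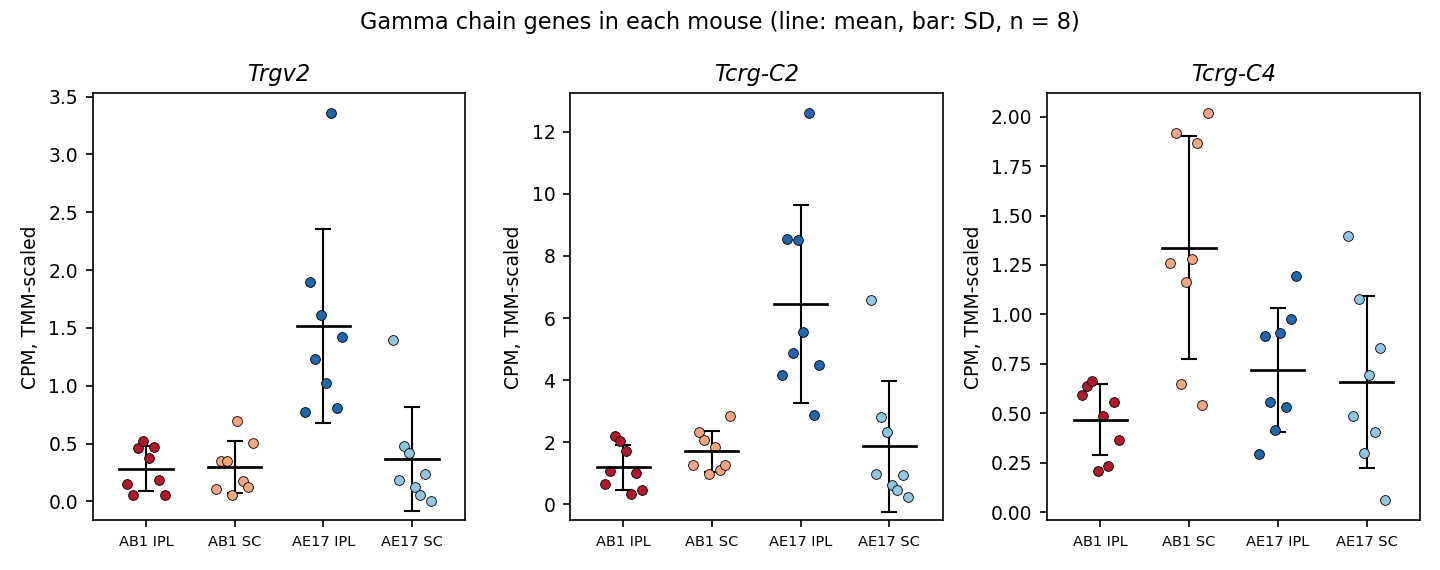
TMM-scaled CPM of Trgv2 and of the non-members Tcrg-C2 and Tcrg-C4 in each mouse, with the mean and SD of 8 mice per group. The AE17 IPL group has the highest mean for Trgv2, with mice at 0.771 to 3.35 CPM, and for Tcrg-C2, while the AB1 SC group has the highest mean for Tcrg-C4. AE17 SC replicate 1, at 1.396 CPM, lies within the AE17 IPL range for Trgv2, and the ranges of the AE17 sites also overlap for Tcrg-C2.

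Few members had enough counts to pass the filter on low values, so that 12 of the 133 were tested in any comparison, namely the 4 constant genes, 5 beta variable genes, 2 alpha variable genes and Trgv2. A gene that passes the filter only through the group in which it is high is favored to differ, so these counts are a description. In AB1 IPL against SC, 6 members were tested, of which 0 were higher, where 12.3% of all tested genes were higher, and 5 were lower, where 10.7% of all tested genes were lower. All 6 had an unadjusted p under 0.05, and DESeq2, fitted without this filter, called 0 of 129 fitted members higher and 22 lower, against 9.33% and 6.82% of all fitted genes. Fitted genes to which DESeq2 gave no adjusted p value count here as not called. Beside the constant genes, Trbv1 was lower, by -1.71 (SE 0.34, edgeR adjusted p = 0.00161), which did not pass with lane as a covariate (-1.08, edgeR adjusted p = 0.284) or in 1 lane only (-1.13, edgeR adjusted p = 0.22), and Trbv13-2 had a log2 fold change of -1.07 (edgeR adjusted p = 0.0504). Among the constant genes, Trac and Trbc2 also did not pass with lane as a covariate or in 1 lane only. In AE17 IPL against SC, 10 were tested, of which 1, Trgv2, was higher and 0 were lower by edgeR, against 2.6% and 3.13% of all tested genes, while 5 had an unadjusted p under 0.05 and DESeq2 called 2 of 132 members higher and 1 lower, against 3.08% and 3.13% of all genes. In AB1 against AE17 IPL tumors, 0 of the 7 tested members rose and 5 fell, against 30.5% and 28.6% of all genes, and 5 had an unadjusted p under 0.05, while DESeq2 called 0 of 133 higher and 25 lower, against 18.1% and 18.6% of all genes. In SC tumors 4 of 6 were higher and 0 were lower by edgeR, against 31.2% and 32.5% of all genes, with 4 at an unadjusted p under 0.05, while DESeq2 called 18 of 133 higher and 6 lower, against 18.9% and 20.1% of all genes. Of the 12 members in the interaction, 0 were higher and 10 were lower, against 11.9% and 8.62% of all genes, with 11 at an unadjusted p under 0.05, while DESeq2 called 0 of 133 higher and 14 lower, against 7.13% and 5.01% of all genes. The 2 that did not pass were Trgv2, at -2.10 (edgeR adjusted p = 0.0553), and Trbv29, at -1.23 (edgeR adjusted p = 0.491).

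Without the filter on low counts, 129 to 133 members could be fitted. In AB1 IPL against SC, 0 were higher and 23 of 129 were lower, against 7.99% and 5.55% of all genes, and the 23 comprised 14 alpha variable, 3 beta variable, 2 delta variable and the 4 constant genes. Among these, Trbv29 had 13 counts in AB1 IPL and 70 in AB1 SC tumors (log2 fold change -2.49) and Trdv2-2 had 7 and 40 (-2.47), while Trav22 had 1 and 21 counts. Trav22 and Trbv29 were singled out after their values were seen. In AE17 IPL against SC, 0 of 132 passed in either direction by edgeR, against 0.763% and 1.17% of all genes, with 13 at an unadjusted p under 0.05. In AB1 against AE17 in IPL tumors, 1 of 133, Trav1, was higher and 34 were lower, against 18.1% and 18.2% of all genes. In SC tumors 20 were higher and 7 were lower, against 19.1% and 20.4% of all genes. In the interaction 0 were higher and 7 of 133 were lower, against 5.34% and 3.67% of all genes. The median fitted log2 fold change over the members was -1.23 in AB1 and 0.18 in AE17 for IPL against SC, -0.85 in IPL and 0.31 in SC tumors for AB1 against AE17, and -1.53 in the interaction, where that over all genes was -0.05 to 0.01. These medians include genes with 0 counts in a group, whose fitted values depend on the prior count.

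Beta segments gave 22 to 134 counts per AB1 IPL mouse, 75 to 203 per AB1 SC mouse, 94 to 222 per AE17 IPL mouse and 11 to 233 per AE17 SC mouse. Per 100 counts of Trbc1 and Trbc2 they amounted to 13.1 ± 1.84 (SD, n = 8), 10.3 ± 1.36 (SD, n = 8), 18.4 ± 1.77 (SD, n = 8) and 14.5 ± 2.97 (SD, n = 8) in the same order of groups. Shares of a segment are given as percent of all Trbv counts of a mouse, over the 29 mice with at least 30 such counts. Trbv13-2 took 16.9% ± 3.49 (SD, n = 7) in AB1 IPL, 16.8% ± 9.03 (SD, n = 8) in AB1 SC, 17.6% ± 12.2 (SD, n = 8) in AE17 IPL and 13.1% ± 3.65 (SD, n = 6) in AE17 SC tumors. The ranges of Trbv13-2 overlapped between all groups. Trbv1 took 14.3% ± 5.01 (SD, n = 7), 19.5% ± 7.64 (SD, n = 8), 6.78% ± 7 (SD, n = 8) and 9.56% ± 5.18 (SD, n = 6). Its 12 to 62 counts per AB1 SC mouse stood against 0 to 18 per AE17 SC mouse, and its level was higher in AB1 than in AE17 SC tumors by 1.88 on the log2 scale (SE 0.49, edgeR adjusted p = 0.00305). In the fit without the filter, Trbv14 and Trbv13-1 were also higher in AB1 than in AE17 SC tumors, by 2.58 (edgeR adjusted p = 0.000303) and 1.89 (edgeR adjusted p = 0.0107), with 82 against 12 and 115 against 29 counts summed over 8 mice. In IPL tumors neither passed, at 1.05 for Trbv14 (edgeR adjusted p = 0.391) and -0.80 for Trbv13-1 (edgeR adjusted p = 0.374).

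Several beta segments of the superantigen group were rare in AB1 tumors. Trbv26 had 0 counts in all 16 AB1 mice, against 0 to 3 counts per mouse in AE17 IPL tumors (8 in all) and 0 to 5 in AE17 SC tumors (15 in all), and 12 of 16 AE17 mice had a count. With AB1 set to the floor of 3 counts over the group and the AE17 counts taken as exact, Trbv26 was at least 3.04-fold higher in AE17 than in AB1 IPL tumors and at least 5.25-fold higher in SC tumors. Counting error of the low AE17 counts is not in these bounds. A count of 0 among 557 and 1128 Trbv counts allows a share of up to 0.539% in AB1 IPL and 0.266% in AB1 SC tumors. Trbv12-1 had 3 counts in AB1 IPL and 5 in AB1 SC tumors, against 45 in AE17 IPL and 22 in AE17 SC tumors. Without the filter, Trbv26 and Trbv12-1 were lower in AB1 at both sites, with edgeR adjusted p values of 0.0159 and 0.000618 in IPL and of 0.00184 and 0.0331 in SC tumors. Trbv15 and Trbv16 were lower in AB1 IPL than in AE17 IPL tumors, by -3.19 (edgeR adjusted p = 0.00319) and -2.27 (edgeR adjusted p = 0.00131) on the log2 scale, and in SC tumors neither passed, at -1.05 (edgeR adjusted p = 0.352) and -1.39 (edgeR adjusted p = 0.0951).

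Trbv12-2 passed the threshold between models at neither site (edgeR adjusted p = 0.339 in IPL and 0.347 in SC tumors). It had 22 counts in AB1 IPL and 19 in AB1 SC tumors, against 35 and 30 in AE17, and 13 of the 22 came from AB1 IPL replicate 6. The 5 segments together made up 9% ± 9.94 (SD, n = 7) of Trbv counts in AB1 IPL, 5.03% ± 4.26 (SD, n = 8) in AB1 SC, 14.1% ± 5.38 (SD, n = 8) in AE17 IPL and 21.6% ± 6.41 (SD, n = 6) in AE17 SC tumors. By the median, the shares were 6.06%, 3.19%, 12.2% and 19.7%. In SC tumors every AE17 mouse with 30 or more counts, from 15%, lay above every AB1 mouse, up to 13.9%, and AE17 SC replicate 6, with 29 counts, was at 13.8%, while AB1 IPL replicate 6, at 31.4% (95% exact binomial interval 19.1% to 45.9%), lay above all AE17 IPL mice. Without it the other 6 AB1 IPL mice with enough counts lay at 3.33% to 6.94%, below all AE17 IPL mice, whose lowest share was 8.26%. The difference of this summed share between models was not tested.

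Other beta segments outside the superantigen group differed between models as well. Trbv3 had 16 and 19 counts in AB1 IPL and SC tumors, against 98 and 86 in AE17 IPL and SC tumors, and was lower in AB1 at both sites without the filter (edgeR adjusted p = 0.00414 and 0.00617). Trbv20 had 9 counts in AB1 IPL and 103 in AE17 IPL tumors, a log2 fold change of -3.53 (edgeR adjusted p = 0.000311), while in SC tumors it had 24 counts in AB1 and 23 in AE17. Trbv6, annotated as a pseudogene, had 0 counts in AB1 SC and 13 in AE17 SC tumors, at least 4.55-fold higher with the AE17 counts taken as exact. Trbv23 had 0 counts in all AB1 mice and 13 counts in 4 AE17 mice, and 7 of these came from 1 AE17 IPL mouse. Trbv20, Trbv6 and Trbv23 were singled out after their values were seen.

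Leading segments differed from mouse to mouse. Over mice with at least 30 Trbv counts, the leading segment held 18.1% to 46.3% (median 25.5%) of Trbv counts in AB1 IPL tumors, 17.3% to 32.9% (median 24.1%) in AB1 SC tumors, 18.1% to 43.1% (median 29.2%) in AE17 IPL tumors and 13.3% to 22.2% (median 16.4%) in AE17 SC tumors. Each group had 5 or 6 different leading segments, and no segment led in more than 3 mice of a group. In AB1 IPL replicate 4, Trbv14 held 62 of 134 counts, 46.3% (95% exact binomial interval 37.6% to 55.1%), where the other AB1 IPL mice had 0 to 13 Trbv14 counts. In AE17 IPL replicate 1, Trbv13-1 held 47 of 109 counts, 43.1% (95% exact binomial interval 33.7% to 52.9%). In AE17 IPL replicate 8, Trbv13-2 held 74 of 197 counts, and without this mouse the lower Trbv13-2 level of AB1 IPL against AE17 IPL tumors, a log2 fold change of -1.32 (edgeR adjusted p = 0.0179), became -0.94 (edgeR adjusted p = 0.0534). Trbv19 led in 3 AE17 IPL mice with 44, 55 and 57 counts, where the other 5 had 1 to 16, and it held 24 of 66 counts in AB1 IPL replicate 7. Trbv3 held 46 of 135 counts in AE17 IPL replicate 7. Trbv13-2 held 45 of 137 counts in AB1 SC replicate 4, and Trbv1 held 62 of 203 in AB1 SC replicate 5.

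**Figure D4:**
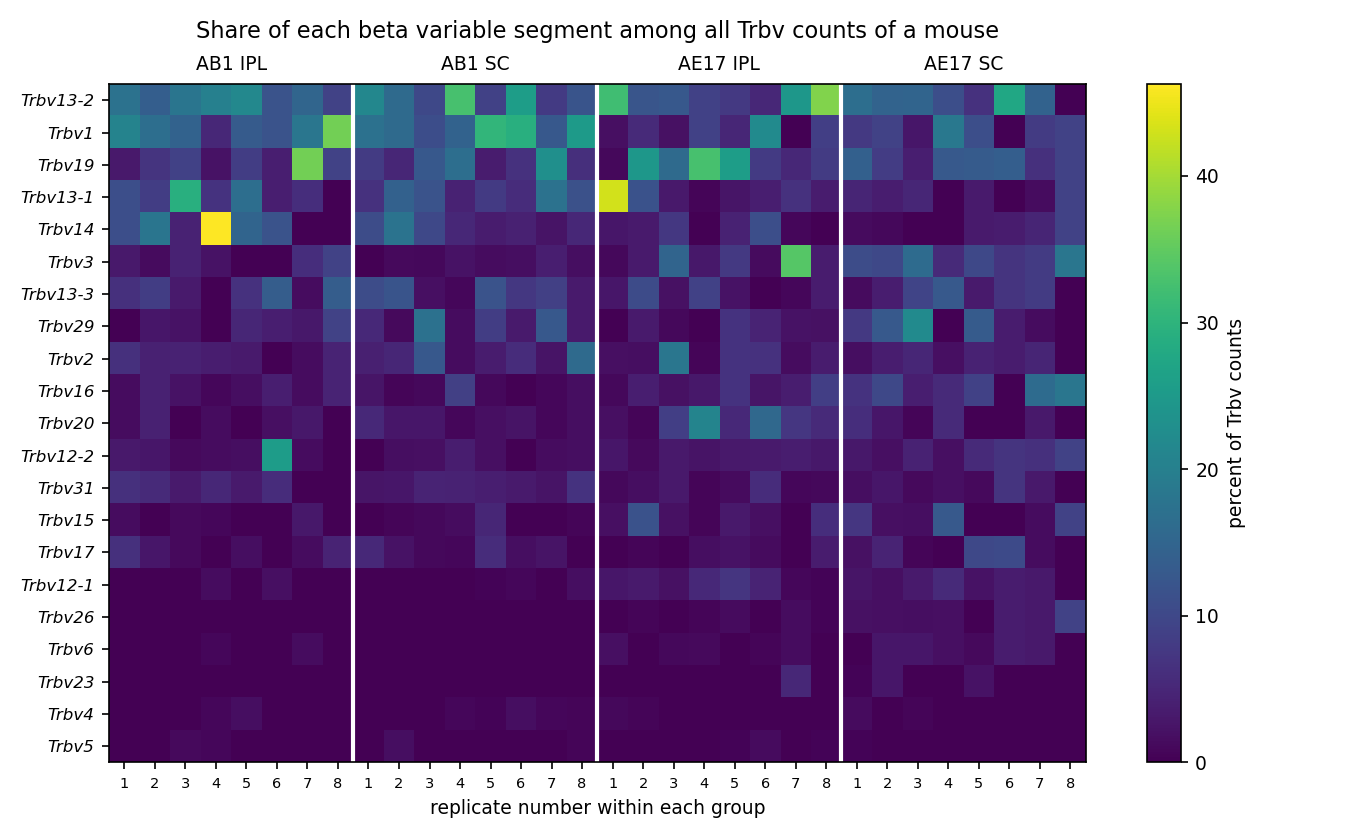
Percent of each of the 21 beta variable segments (rows, ordered by mean share) among all Trbv counts of each of the 32 mice (columns, by group and replicate number). Single bright cells mark the leading segment of a mouse, such as Trbv14 with 46.3% in AB1 IPL replicate 4, and the rows of Trbv26 and Trbv23 are at 0% across all AB1 mice. The columns of AB1 IPL replicate 8 and AE17 SC replicates 6 and 8 rest on only 22, 29 and 11 Trbv counts.

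The alpha segments, here with those annotated for alpha or delta chains, gave 45 to 127 counts per AB1 IPL mouse, 130 to 262 per AB1 SC mouse, 105 to 271 per AE17 IPL mouse and 23 to 356 per AE17 SC mouse. They are described by family, and reads counted for several copies enter a family's sum more than once. The Trav14 family of 9 genes took 7.9% ± 7.4 (SD, n = 8) of Trav counts in AB1 IPL, 8.94% ± 2.29 (SD, n = 8) in AB1 SC, 38.4% ± 16.7 (SD, n = 8) in AE17 IPL and 20.1% ± 10.7 (SD, n = 7) in AE17 SC tumors. It led in 6 of 8 AE17 IPL mice, and its share there ranged from 18.8% to 66.2%, above all AB1 mice but AB1 IPL replicate 1, at 23.8%. With the copies of a segment counted once, an alternative chosen after the data were seen, its share was 33.8% ± 17.8 (SD, n = 8) in AE17 IPL tumors and it led in 5 of 8 mice. In AE17 IPL replicate 1 the Trav6 family led, with 67.5% of 120 counts. In the fit without the filter, Trav14d-2 and Trav14n-2, whose 149 counts were the same in every AE17 IPL mouse, stood at 6 counts in AB1 IPL tumors, a log2 fold change of -4.58 (edgeR adjusted p = 1.82e-06). Trav14-2 had 143 against 5 counts, a log2 fold change of -4.76 (edgeR adjusted p = 4.16e-05), and 62 of the 143 came from AE17 IPL replicate 4. In the interaction, Trav14d-2 and Trav14n-2 passed the threshold with log2 values of -3.17 and -3.14 (edgeR adjusted p = 0.047 and 0.0459), and without the filter they did not (edgeR adjusted p = 0.0663 and 0.064).

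In AB1 SC tumors Trav9 took 17.1% ± 7.55 (SD, n = 8), Trav6 15.9% ± 6.73 (SD, n = 8), Trav3 12.7% ± 6.04 (SD, n = 8) and Trav7 12.3% ± 3.23 (SD, n = 8) of Trav counts. Trav3-3 had 83 counts in AB1 SC and 18 in AE17 SC tumors, a log2 fold change of 2.08 without the filter (edgeR adjusted p = 0.00127). Trav6-6, whose count equalled that of its copy Trav6d-6 in every library, was lower in AB1 IPL than in AB1 SC tumors, by -1.89 (edgeR adjusted p = 0.0191). Trav22, annotated as a pseudogene, was counted in all 8 AB1 SC mice, with 1 to 6 counts each, and in no AE17 mouse, and its 21 AB1 SC counts stood against 1 in AB1 IPL tumors, a log2 fold change of -3.56 (edgeR adjusted p = 0.00129). None of its 297 50-base stretches occurred in another gene.

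**Figure D5:**
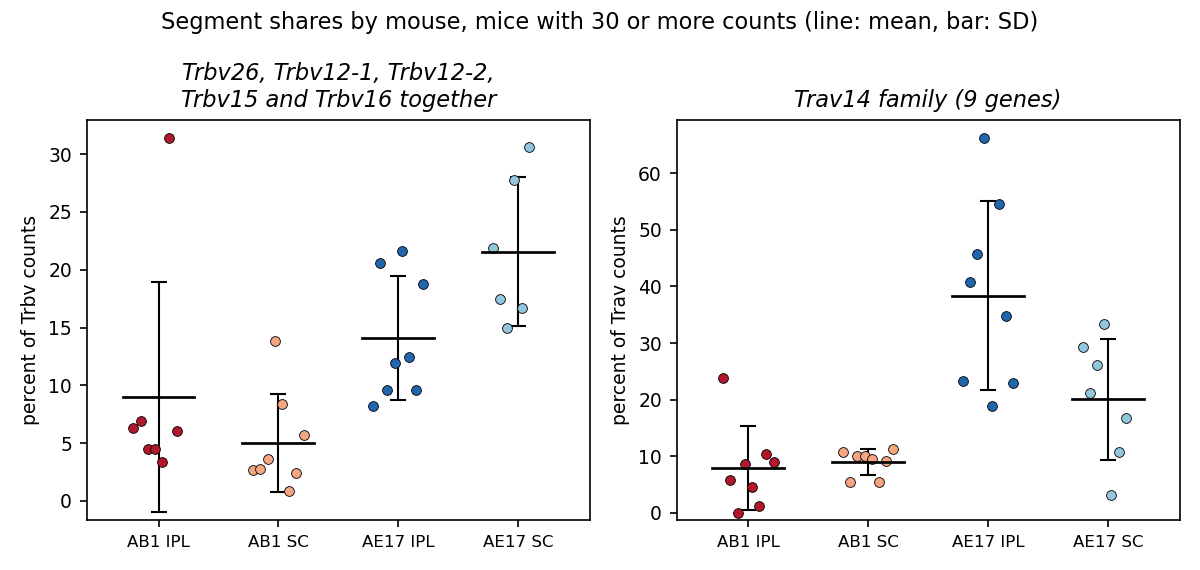
Percent of Trbv counts on Trbv26, Trbv12-1, Trbv12-2, Trbv15 and Trbv16 together (left) and percent of Trav counts on the Trav14 family (right) in each mouse with 30 or more counts of the class, with the mean and SD per group. The AE17 group means are higher in both panels, at 14.1% and 21.6% on the left and 38.4% and 20.1% on the right, and single mice of the 2 models overlap, with AB1 IPL replicate 6 at 31.4% on the left and AE17 SC replicate 5 at 3.08% on the right.

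Segments of invariant T cells were at the limit of detection. Trav11, the alpha segment of invariant NKT cells, had 0 counts in AB1 IPL, 4 in AB1 SC, 2 in AE17 IPL and 5 in AE17 SC tumors, with 2 or fewer in any mouse, and its counts equalled those of its copy Trav11d. Trav1, the alpha segment of mucosal-associated invariant T cells, had 7 counts in 4 AB1 IPL mice, 3 in AB1 SC, 0 in AE17 IPL and 1 in AE17 SC tumors. Without the filter Trav1 was higher in AB1 than in AE17 IPL tumors (edgeR adjusted p = 0.0374), a call that rests on 7 counts.

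Genes of the receptor complex and its signaling moved with the constant genes. Of 22 such genes with a row, 0 were higher and 20 were lower in AB1 IPL than in AB1 SC tumors, with a median log2 fold change of -1.32, where the median over all genes was 0.00 and 12.3% of all tested genes were higher and 10.7% lower. In AE17 IPL against SC, 0 were higher and 1, Icos, was lower, at a median of 0.15, against 2.6% and 3.13% of all tested genes. Between models, 1 was higher and 16 were lower in AB1 IPL tumors (median -0.92), against 30.5% and 28.6% of all genes, and 10 were higher and 1 was lower in AB1 SC tumors (median 0.64), against 31.2% and 32.5%. Zap70, the kinase that binds the activated receptor, had log2 fold changes of IPL against SC of -1.32 (edgeR adjusted p = 0.000794) in AB1 and 0.58 (edgeR adjusted p = 0.296) in AE17. Cd3e, a signaling subunit of the receptor, had -1.06 (edgeR adjusted p = 0.0127) and 0.76 (edgeR adjusted p = 0.236). Of the 4 coreceptor and lineage genes, all 4 were lower in AB1 IPL than in AB1 SC tumors, where 10.7% of all genes were lower, and in AE17 only Foxp3, the regulatory T cell factor, passed, at -1.63 (edgeR adjusted p = 0.0248). Cd8a, the coreceptor of cytotoxic T cells, had 456 to 971 counts per AE17 IPL mouse and 15 to 780 per AE17 SC mouse, a log2 fold change of 1.60 (edgeR adjusted p = 0.0732).

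NK cell genes moved with Trdc in AB1. Of 6 tested, all 6 were lower in AB1 IPL than in AB1 SC tumors, against 10.7% of all genes, and the 8 with a row summed to 12.6 to 29.7 CPM against 43.6 to 109 CPM. In AE17, 5 of 8 were lower in IPL tumors, against 3.13% of all genes, with sums of 42.3 to 66.3 CPM against 34.1 to 97.4 CPM. Ncr1, an activating receptor of NK cells, had log2 fold changes of -2.17 (edgeR adjusted p = 7.52e-06) in AB1 and -1.43 (edgeR adjusted p = 0.0128) in AE17. Of 7 tested genes of the gamma-delta lineage and type 17 list, 2 rose and 2 fell in AB1 IPL against SC tumors, against 12.3% and 10.7% of all genes, and only Cd163l1 passed the threshold in AE17. Cd163l1, known from gamma-delta T cells, was lower in IPL tumors of both models, by -1.97 (edgeR adjusted p = 0.000128) in AB1 and -1.40 (edgeR adjusted p = 0.0397) in AE17. The part of these genes in the receptor gene differences was not tested.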

How the data were processed

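RNA of 32 whole tumors, 8 per group, was sequenced as 50-base single-end reads. The authors aligned the reads with HISAT2 2.0.4 after demultiplexing with bcl2fastq 1.8.4, per the submitters' processing notes, and deposited whole-number read counts per gene, not normalized. The gene identifiers match GENCODE M21 (GRCm38), while the build named in the methods differs, and strand use in counting is not given in the sources used here. Groups and replicate numbers came from the sample labels, and nothing was left out.

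Counts were compared with edgeR 4.0.16 (R 4.3.3) by the quasi-likelihood F test, two-sided, with TMM scaling, filterByExpr and robust dispersion, within each pair of groups and, for the interaction, over all 32 libraries, and p-values were adjusted by Benjamini-Hochberg over all genes tested (threshold 0.05). Shares of 2 constant genes were compared by an exact permutation test over mice. The scripts were tested on simulated data. Alternatives were DESeq2 1.42.0, DESeq2 size factors, no filter, lane as a covariate, 1 lane only, a replicate block, each mouse left out, and AE17 IPL replicates 5 and 8, which had 696 and 509 counts of the B cell gene Cd79a, left out together. Total counts of 15432258 to 20649645 set the floor of 3 counts used here.

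The members and the gene lists were chosen with earlier results of these data known. Named genes were the constant, gamma and delta genes, the variable genes with the 5 largest rises and falls past the threshold, those with the largest mean shares, the superantigen and invariant segments, and segments leading a mouse with at least 30% of its counts.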

Additional observations from a re-analysis of the deposited data

Results flagged for a closer look

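Of 52 sets of 8 mice examined, 10 held 1 mouse far from the nearest other by Dixon's 95% limit. This limit is set for normally distributed values, and how often chance alone reaches it with counts as low and uneven as these was not tested. For Trgv2 these were AE17 IPL replicate 6, at 3.354 CPM with the next mouse at 1.898 CPM, and AE17 SC replicate 1, at 1.396 CPM with the next at 0.4786 CPM. For Trbv13-2 it was AE17 IPL replicate 8, at 4.213 CPM. Trbv19 stood out in AB1 IPL replicate 7, at 1.116 CPM, and in AE17 SC replicate 1, at 1.92 CPM. Trbv13-1 stood out in AB1 IPL replicate 3, at 1.324 CPM, and in AE17 IPL replicate 1, at 2.788 CPM. Trbv14 stood out in AB1 IPL replicate 4, at 3.26 CPM, and in AB1 SC replicate 2, at 1.615 CPM, and Trbv13-3 in AE17 SC replicate 3, at 1.017 CPM. Each of these was the highest mouse of its group.

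The site difference of AB1 minus that of AE17 passed the threshold of the interaction term by edgeR for 10 members. On the log2 scale it was -3.171 for Trav14d-2, -3.142 for Trav14n-2, -2.715 for Trbv13-1, -2.647 for Trbv19, -2.288 for Trbv1 and -1.988 for Trbv13-2 among the variable genes. It was -2.055 for Trbc2, -1.991 for Trbc1, -1.788 for Trac and -1.141 for Trdc among the constant genes. With lane as a covariate, 0 of these passed, and 117 of 15681 genes passed in all, against 3212 without it. With no filter on low counts, Trbv19 and the 4 constant genes passed, and Trav14d-2, Trav14n-2, Trbv13-1, Trbv1 and Trbv13-2 did not, with edgeR adjusted p values of 0.0615 to 0.0831.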

How the results depend on the processing

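Members called in AB1 IPL against SC numbered 5, and 22 with DESeq2, 23 with no filter, and 2 both with lane as a covariate and in 1 lane only, while 3374 of 14645 genes were called in all, and 386 with lane as a covariate and 169 of 15993 in 1 lane only. In AE17 IPL against SC they numbered 1, and 3 with DESeq2, 0 with no filter, 0 with lane as a covariate, 0 in 1 lane only, 2 without AE17 IPL replicates 5 and 8, and 0 to 2 with each mouse left out, while the share of all genes called was 5.73%, and 0.00682% with lane as a covariate and 0.0911% in 1 lane only. In AB1 against AE17 they numbered 5 in IPL tumors, and 25 with DESeq2, 35 with no filter and 3 without AE17 IPL replicates 5 and 8, while 59.1%, 36.7%, 36.2% and 55.6% of all genes were called, and they numbered 4 in SC tumors, and 24 with DESeq2 and 27 with no filter, while 63.7%, 38.9% and 39.5% of all genes were called. In the interaction they numbered 10, and 14 with DESeq2, 7 without AE17 IPL replicates 5 and 8, 0 with lane as a covariate and 7 with no filter, of which 5 were among the 10 and the others were Trbv2 and Trbv20. Of all genes, 20.5% were called in the interaction, and 0.746% with lane as a covariate. DESeq2 and the fit with no filter fitted 129 to 133 members in place of 6 to 12. For DESeq2, fitted genes without an adjusted p value count as not called. The cause of the other changes was not tested. The replicate numbers name different animals, and not every same-numbered pair deviated together (correlations of -0.316 to 0.0124 in AB1 and -0.184 to 0.243 in AE17, where 5 of 8 were above 0.1), so the pairs were not taken as matched, and with a replicate block the call counts were 5, 0, 4 and 4 in the same order and 5 in the interaction, while 15.5%, 4.51%, 55.5%, 60.1% and 15.3% of all genes were called. The Trbc1 share in AB1 IPL minus SC was -5.075 points in 1 lane only, where it no longer passed. The 8 share comparisons kept their direction and their side of the threshold with each mouse left out. Of the values of single genes and of the Trav14 family under alternatives, 751 kept direction and side of the threshold, 57 lost the threshold, 18 gained it, 3 changed sign without passing it and 3 shares moved by more than 1 SD, all with 100 or more Trbv counts required, which left 1 AB1 IPL mouse. The 3 sign changes were Trbv14 in AB1 IPL against SC, at -0.7037 in 1 lane only, Trbv16 in AE17 IPL against SC, at 0.211 in 1 lane only, and Trbv1, AB1 against AE17 in IPL tumors, at -0.5689 to 0.09266 with each mouse left out and above 0 only without AE17 IPL replicate 6. Most variable genes had too few counts to pass the filter on low counts at this depth.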

Other observations

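The 7 genes of the immature thymocyte and thymus list with a row summed to 10.4 to 18.3 CPM in AB1 IPL, 11.2 to 14.9 CPM in AB1 SC, 12.3 to 15 CPM in AE17 IPL and 7.91 to 14.6 CPM in AE17 SC tumors, ranges that overlap. Within it, Rag1, which cuts receptor segments for joining, had 0 to 87 counts per AB1 IPL mouse (148 in all) and 33 counts in 3 AE17 IPL mice, against 1 count in all AB1 SC and 3 in all AE17 SC mice. Rag2, its partner, had 17 counts in 4 AB1 IPL mice, 0 in AB1 SC, 4 in 1 AE17 IPL mouse and 1 in AE17 SC tumors. The gamma variable gene Tcrg-V7, a non-member by its symbol, had 37 counts in 3 AE17 IPL mice and 0 in AE17 SC mice, with 7 counts in AB1 IPL and 4 in AB1 SC tumors.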
